A study of Mus musculus with 4 samples.

Results

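The nuclear genes of the mitochondrial respiratory chain and of ATP synthase were followed in peritoneal exudate cells of wild-type and C/EBPε-deficient mice. Members were all probe sets whose platform annotation gave exactly 1 gene symbol beginning with Nduf (complex I), Uqcr (complex III) or Atp5 (ATP synthase), or with Cox and a digit from 4 to 8 (complex IV), together with Cyc1 and Cycs. Within this rule the symbols alone chose them, not their signal, but the choice was made with earlier results of these data known. The rule gave 65 probe sets for 56 genes, of 13057 probe sets and 6137 singly annotated genes in all. Complex I had 24 probe sets for 22 genes, complex III 8 for 8 genes (Cyc1 included), complex IV 16 for 12, ATP synthase 15 for 13, and cytochrome c (Cycs) 2 for 1 gene. A further 3 probe sets carried 2 symbols, of which at least 1 fits the rule, and were left out. They read 3413 and 3707 in wild-type and deficient cells for Ndufs5 with its pseudogene, 21364 and 16947 for Cox5b with Gm34962, and -900 and -304 for Cox6c with Cox6c2.

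The deficient mice (-/-) lacked C/EBPε, which drives the late steps of granulocyte maturation, and the wild-type controls (+/+) came from the same 129/SvEv x NIH Black Swiss background. Mice of both genotypes, 6 to 8 weeks old and 4 per genotype, had been given 2 ml of 4% thioglycollate broth intraperitoneally, and their cells were lavaged at 24 h. By cytospin the labels put both genotypes at about 30% monocytes, 60% neutrophils and 7 to 10% lymphocytes. Total RNA was hybridised to 2 Affymetrix designs, called types A and B here, that hold different probe sets. There was 1 array per genotype on each, so no difference below has a replicate check and no test could be made. The text on how cells of the 4 mice were combined breaks off, and the genotypes rest on the sample titles, since Cebpe itself was not analysed here. On type B the RNA source of the deficient sample does not name the deficiency.

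The respiratory chain passes electrons from NADH through complex I, ubiquinone, complex III, cytochrome c and complex IV to oxygen, and pumps protons as it does so. ATP synthase lets the protons return through its membrane part and makes ATP in its catalytic head. Macrophages depend on this machinery to a varying degree with their state of activation, whereas neutrophils hold few mitochondria and live mainly on glycolysis.

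Signal was read as intensity on a linear scale after the arrays of a type had been brought to a common trimmed mean (factors 0.9998 to 1.0002). Scaled values from the 2 arrays of a type were joined and their median served as a floor, 1039 for A and 692 for B. Ratios are log2 of deficient over wild-type signal and were formed where both readings exceeded the floor. Where 1 reading did, the ratio against the floor was kept as a bound. Repeat probe sets of a gene differed with a pooled SD of 0.38 log2 units (423 genes), or 0.34 at 3 times the floor or more and 0.46 below. This spread between probe sets is called the measurement error of 1 ratio below. It holds no spread between mice. Errors shared by all probe sets of an array enter it only where a gene's repeats lie on both types. The beta-actin control gave 3′ over 5′ signal ratios of 0.82 to 0.89, and the Gapdh control 0.76 to 0.84, over the 4 arrays.

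Respiratory chain and ATP synthase transcripts above the floor on both arrays differed little between genotypes. Of the 65 probe sets, 48 had a ratio, 5 had a bound and 12 were at or below the floor on both arrays. Of the 48 ratios, 0 were lower and 0 were higher by 2-fold or more, where 3.41% of all 5895 measured probe sets were lower and 3.38% higher by that much. At 1.5-fold, 2 were lower and 3 higher, beside 11.1% and 12.7% of all measured probe sets. The remaining 43 lay between these limits. Of the 5 bounds, 1, that of Uqcrfs1, was lower by 2-fold or more, beside 9.57% of all 1264 probe sets with a bound. With the floor at the 30th percentile, 3 of 55 member probe sets were lower by that much, beside 628 of 8421 in all. Scaling to the bacterial spike-in controls put 1 member probe set, the dimmer of Cox7a2l, past 2-fold on the high side and 0 on the low side. Over all probe sets that scaling changed 201 lower and 199 higher into 110 lower and 487 higher.

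**Figure D1:**
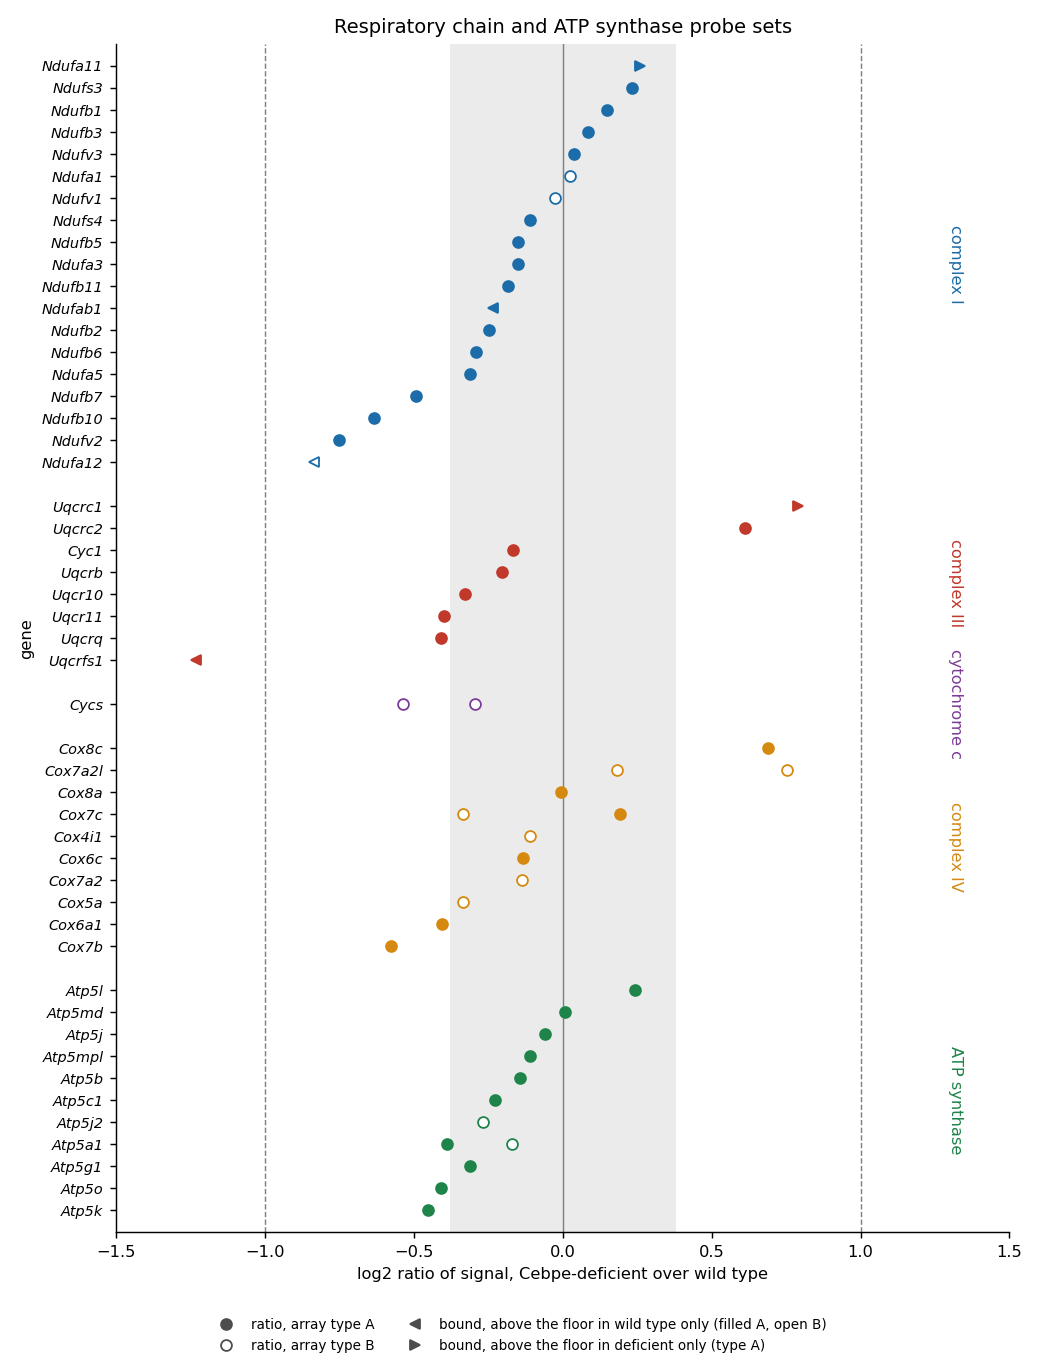
Log2 ratio of signal, Cebpe-deficient over wild type (x axis), for each member gene with a ratio or bound (y axis), grouped by complex; filled points are array type A, open points type B, triangles are bounds, the grey band is 1 measurement SD (0.38) to each side of 0 and dashed lines mark 2-fold. Points lie mostly to the left of 0 under this scaling (34 of 44 measured genes; 17 of 44 under scaling to bacterial controls), and only the bound of Uqcrfs1 lies past a dashed line.

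The small differences lay more often on the low side. A gene was read by the measured probe set that stood highest over its floor, which left 44 member genes. Of these, 34 had a ratio below 0, or 77.3%, against 48.9% of all 3127 measured genes. The median log2 ratio of the members was -0.17 (quartiles -0.34 and -0.02, 44 genes), that is 1.12-fold lower in deficient cells, and that of all genes was 0.01. Scaling to the bacterial spike-in controls turned the members' median to 0.05 and left 17 of 44 below 0. That scaling also raised the median of all genes by 0.23, and relative to it the members stood at -0.19. The members' median lay 0.18 to 0.20 below that of all genes under this and the 4 other scalings tried. No scaling, equal medians and bacterial controls apply a single factor per array. They move members and all genes nearly alike, so this gap could hardly change under them and its steadiness there is no check. By the measurement error of 1 ratio, 10 of the 44 member genes were lower and 2 higher by more than 0.38. Of all 3127 measured genes, 631 (20.2%) were lower and 680 (21.7%) higher by that much. Past this limit the members' lower share was thus close to that of all genes, and their higher share was smaller.

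**Figure D2:**
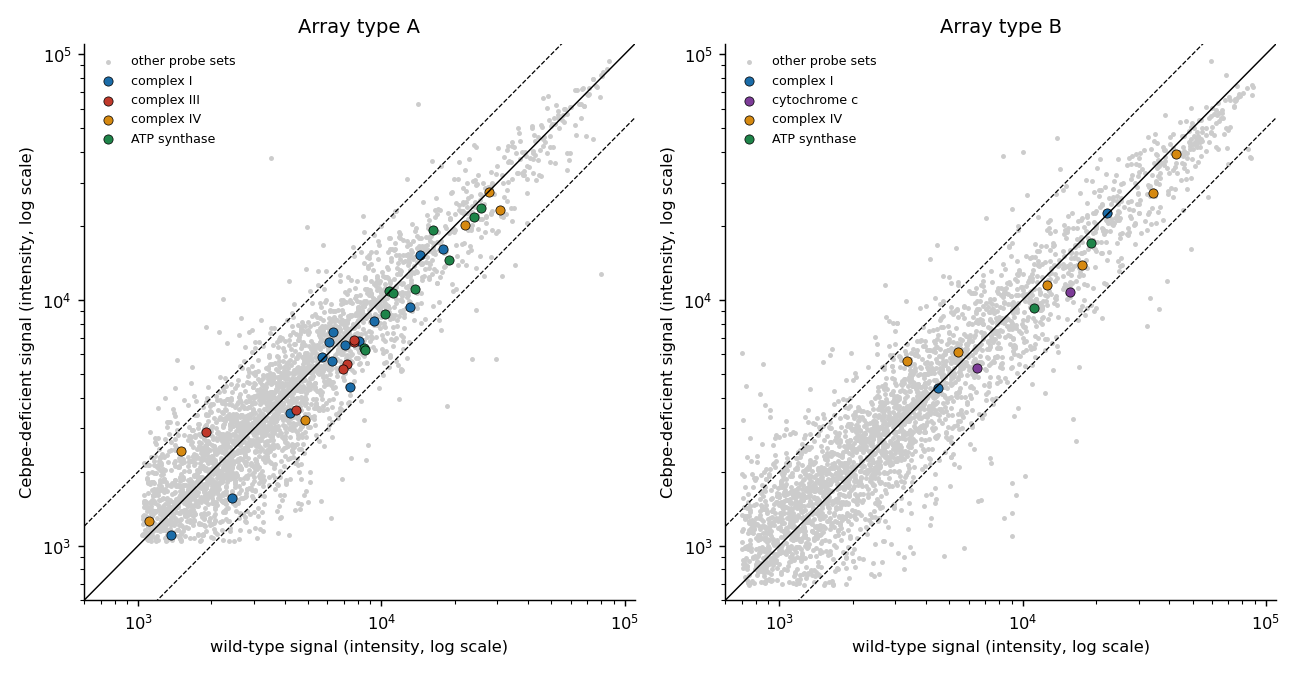
Wild-type signal (x axis) against Cebpe-deficient signal (y axis), both as scaled intensity on log axes, for probe sets above the floor on both arrays of type A (left) and type B (right); grey points are other probe sets, coloured points members by complex, the solid line equality and the dashed lines 2-fold. The coloured points keep close to the line of equality between the dashed lines over the whole range of signal, from Cox7c on type A (1104 and 1262) to Cox4i1 (42505 and 39391).

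The spread among members was narrower than among all genes, with an SD of 0.29 against 0.55. Members are bright: 37 of the 44 stood at 4 times the floor or more. The 1520 genes of that brightness had a median of 0.01, an SD of 0.56 and 48.5% below 0, while the 37 members had a median of -0.15, an SD of 0.22 and 78.4% below 0. At 8 times the floor or more the medians were -0.14 for 23 members and -0.04 for 784 genes, with 78.3% and 52.4% below 0. The part of brightness in the members' shift was not tested.

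**Figure D3:**
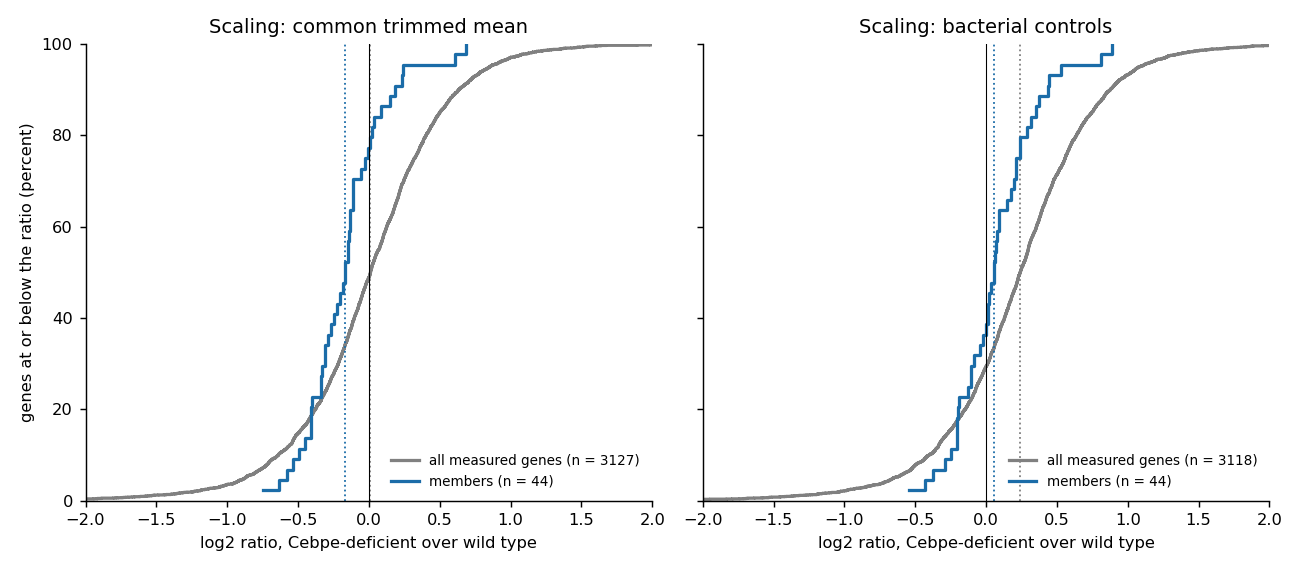
Percent of genes at or below each log2 ratio, Cebpe-deficient over wild type, for the 44 measured members (blue) and all measured genes (grey), with arrays scaled to a common trimmed mean (left) or to the bacterial controls (right); dotted lines mark medians. Both curves move right under bacterial-control scaling, the members' median from -0.17 to 0.05, and the members keep a steeper curve that lies to the left of the grey one through the middle of the range.

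Complex I takes electrons from NADH. Its 16 measured genes had a median of -0.15 and ranged from -0.75 to 0.23, with 11 below 0, and under bacterial-control scaling the median was 0.05. Ndufv2, an iron-sulphur subunit of the NADH-oxidising module, read 7424 in wild-type cells against 4416 without C/EBPε, or 1.68-fold lower. This was the lowest ratio of all members, -0.75. Ndufb10 and Ndufb7 belong to the membrane arm. Ndufb10 read 2419 and 1559, a log2 ratio of -0.63, and Ndufb7 read 13136 and 9341, a ratio of -0.49. All 3 of these kept their sign under the 5 other scalings. For scalings with a single factor per array this follows from the size of the ratios and is no check.

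The other flavoprotein genes of complex I were nearer to 0. Ndufv1, the flavin-carrying subunit, read 4472 and 4388, and the accessory subunit Ndufv3 read 5688 and 5847. Ndufs3, a core subunit, had the highest ratio, 6312 against 7427 or 0.23. It was followed by Ndufb1 at 0.15, by a probe set shared within a sequence family, and Ndufb3 at 0.09. Ndufa1 was the brightest relative to the floor and read 22123 and 22488. Between these ends, Ndufa5 stood at -0.31, Ndufb6 at -0.29, Ndufb2 at -0.25, Ndufb11 at -0.18, Ndufa3 and Ndufb5 at -0.15 and Ndufs4 at -0.11, all smaller than the measurement error of 1 ratio.

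In complex I, 3 genes gave only a bound and 3 gave no value. Ndufa12, an accessory subunit, read 1236 and 109 and was at least 1.79-fold lower. Ndufab1, the mitochondrial acyl carrier protein that is also a complex I subunit, read 1223 and 603, at least 1.18-fold lower, by a probe set shared within a sequence family. Ndufa11, a membrane-arm subunit, read 991 and 1243, at least 1.20-fold higher. These 3 sat next to the floor. A floor at the 30th percentile gave Ndufa12 and Ndufab1 ratios of -3.50 and -1.02, and a floor at the 70th left all 3 below it in both genotypes. The accessory subunit Ndufa10 and the assembly factors Ndufaf1 and Ndufaf4 were at or below the floor in both genotypes by all their probe sets.

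Complex III passes electrons from ubiquinol to cytochrome c. Of its 6 measured genes, 5 were below 0 (median -0.27), and the median stayed below 0 under all 5 other scalings, at -0.06 with bacterial controls. The small subunits Uqcrq, Uqcr11, Uqcr10 and Uqcrb lay close together at -0.41, -0.40, -0.33 and -0.20. Uqcrq read 6933 and 5227, and Uqcr11 read 7223 and 5480. Cyc1, the cytochrome c1 subunit, read 7705 and 6863, a ratio of -0.17.

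The larger complex III subunits did not move alike. Uqcrfs1, the Rieske iron-sulphur protein, read 2439 in wild-type cells against 600 without C/EBPε, at least 2.35-fold lower. It was the 1 member past 2-fold by its bound, of 5 with a bound, and 9.57% of the 1264 probe sets above the floor on 1 array were that much lower by their bound, while 12.2% were higher. A floor at the 30th percentile turned its bound into a ratio of -2.02, and a floor at the 70th left it below in both genotypes. The core proteins went the other way. Uqcrc2 read 1900 and 2902, a ratio of 0.61, and Uqcrc1 read -1730 and 1798, at least 1.73-fold higher against the floor. A floor at the 70th percentile left Uqcrc1 below in both genotypes and turned the Uqcrc2 ratio into a bound of at least 1.13-fold higher. The mean signal of Uqcrfs1, Uqcrc2 and Uqcrc1 was 1.46, 2.31 and 0.03 times the floor. The contrast between these larger subunits thus rests on dim readings.

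Cycs encodes cytochrome c, which carries electrons from complex III to complex IV and is released from mitochondria in apoptosis. Its brighter probe set, shared within a sequence family, read 15593 and 10747, or 1.45-fold lower. The other read 6504 and 5298, or 1.23-fold lower. Both probe sets, on type B, gave the same direction, and the ratio of the brighter one was -0.54, beyond the measurement error of 1 ratio. It ranged from -0.71 to -0.19 over the 5 other scalings.

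Complex IV reduces oxygen to water. Its 10 measured genes had a median of -0.13, with 8 below 0, a range from -0.58 to 0.69 and a median of 0.13 under bacterial-control scaling. Cox4i1, Cox5a, Cox6a1, Cox7a2, Cox7a2l and Cox7c (on type B) were read by probe sets shared within a sequence family. Without family-shared probe sets 5 genes remained, with a median of -0.01. Their probe sets carry another suffix of the manufacturer, _s, and were not shown to read the gene alone. Cox7b had the lowest ratio, with readings of 4839 and 3247, while its second probe set was below the floor. Cox6a1 read 30816 and 23254, a ratio of -0.41. Cox5a, which read 17535 and 13897, and Cox7c both stood at -0.34. Cox4i1, the largest nuclear-encoded subunit, read 42505 and 39391, and Cox7a2 and Cox6c, at -0.14 and -0.13, lay as near to 0.

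Isoform genes of complex IV differed in whether they were measured. Cox6a1 and Cox8a, the isoforms of most tissues, were above the floor in both genotypes. Cox8a read 27606 and 27512, the ratio nearest to 0 of all 44 members. The striated muscle isoforms Cox6a2 and Cox8b read below 0 on every array that held them, with Cox6a2 on both types. Cox8c, known from testis, had readings of 1500 and 2417 near the floor and, with each gene read by its chosen probe set, the highest ratio, 0.69. Cox7a2l, which helps to join complexes III and IV into supercomplexes, was higher by both probe sets on type B, each shared within a sequence family. They read 5422 and 6149, a ratio of 0.18, and 3354 and 5649, a ratio of 0.75, so both gave the direction but not the same size.

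ATP synthase had 11 measured genes with a median of -0.17 and a range from -0.45 to 0.24. Of them 9 were below 0, and the median was 0.08 under bacterial-control scaling. In the catalytic head, the alpha subunit gene Atp5a1 read 19131 and 16997 on type B and 19016 and 14529 on type A, with ratios of -0.17 and -0.39. Both Atp5a1 probe sets are shared within a sequence family. Atp5b, the beta subunit, read 24049 and 21778, or -0.14, although its second probe set was below the floor at 607 and 556. Atp5c1, the gamma subunit of the central stalk, stood at -0.23. The 3 genes lay below 0 under this scaling, but bacterial-control scaling put Atp5a1 at 0.18 and Atp5b at 0.06 and left Atp5c1 at -0.02.

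In the stalks and membrane part, Atp5o, which joins the head to the peripheral stalk, read 8477 and 6385, a ratio of -0.41. Atp5k, the e subunit, read 8526 and 6233 and had the lowest ratio of the complex, -0.45. The g subunit gene Atp5l, a partner of e in the membrane, had the highest, with readings of 16250 and 19234 and a ratio of 0.24. These 2 kept opposite signs under all 5 other scalings. Both were read on type A, where scalings with a single factor per array shift them alike. Atp5g1, a gene of the c ring, and Atp5j2 stood at -0.31 and -0.27, each by a probe set shared within a sequence family. Atp5mpl stood at -0.11, Atp5j, coupling factor 6, at -0.06 and Atp5md at 0.01. Atp5d and Atp5pb, the delta and b subunits, were at or below the floor in both genotypes.

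Of the 4 genes with 2 measured probe sets, 3 had both on the same side of 0 and 1 did not. Atp5a1 and Cycs were lower and Cox7a2l higher by both. Both probe sets of Atp5a1 and of Cox7a2l, and the brighter of Cycs, are shared within sequence families, so they may not read the gene alone. The other Cycs probe set carries the suffix _s and was not shown to read the gene alone either. Cox7c read 34241 and 27115 on type B but 1104 and 1262, next to the floor, on type A, with ratios of -0.34 and 0.19. By array type, 27 of 36 members measured on A were below 0 (median -0.18) beside a median of 0.02 for all genes there. On B 8 of 10 were below 0 (median -0.15) beside -0.03. The types hold different probe sets and are not replicates, and the low side prevailed on both except under bacterial-control scaling.

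Over the 5 other scalings, 17 member genes stayed below 0 and 7 above it, and 20 changed sign. Scalings with a single factor per array shift all ratios of an array type by the same amount. Whether a gene kept its sign under them thus follows from the size of its ratio and its array type. It is no check of that gene. Among those that stayed below were Ndufv2, Ndufb10, Ndufb7, Cox7b, Cycs, Cox6a1, Uqcrq, Uqcr11, Atp5o and Atp5k. Those that stayed above were Cox8c, Uqcrc2, Atp5l, Ndufs3, Cox7a2l, Ndufb1 and Ndufb3.

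Other mitochondrial genes were read the same way. No probe set was matched to the subunits encoded by mitochondrial DNA, so these were not analysed here. In complex II, Sdhb, the iron-sulphur subunit, read 7173 and 9813, a ratio of 0.45, by a probe set shared within a sequence family. Sdhaf1, an assembly factor, read 2589 and 1295, just short of 2-fold lower. Of 6 measured assembly factors 5 were below 0 (median -0.26, and -0.06 under bacterial-control scaling), led by Cox18 at -0.46 and Cox16 at -0.35. Uqcc3 was the highest, at 0.05. Cox17, the copper chaperone of complex IV, read 971 and 1904, at least 1.83-fold higher, and Surf1, another complex IV assembly factor, was at least 1.25-fold higher. In the ubiquinone list 2 genes were measured, Coq9 at -0.02 and Etfb at 0.03. Coq10a, a ubiquinone-binding protein, read 814 and 3200, at least 3.08-fold higher. The list's other 3 bounds were on the lower side, Gpd2, the mitochondrial glycerol phosphate dehydrogenase, at least 1.42-fold (1471 and 652), and Coq4 and Pdss2 at least 1.03-fold and 1.01-fold.

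**Figure D4:**
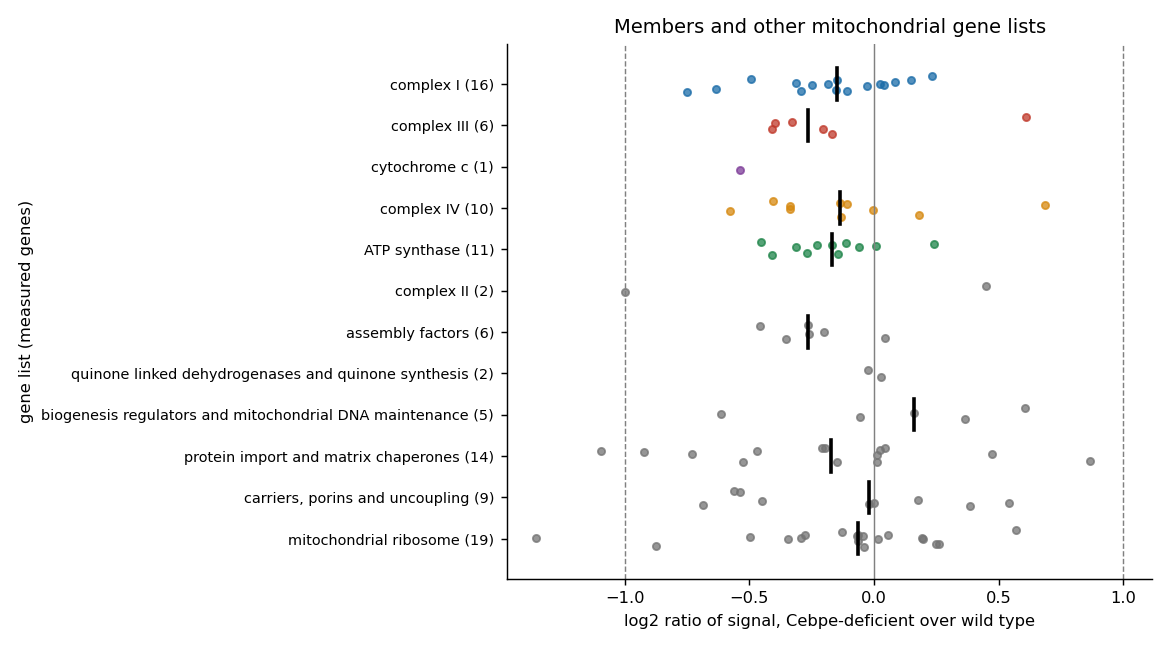
Log2 ratios, Cebpe-deficient over wild type (x axis), of the measured genes of each list (y axis, number of genes in brackets), with the member complexes in colour and other mitochondrial lists in grey; black bars are medians of lists with at least 4 genes and dashed lines mark 2-fold. Member complexes have medians from -0.27 to -0.13 (-0.06 to 0.13 under bacterial-control scaling) and lie inside the dashed lines, while Mrpl30 (-1.36) and Hspe1 (-1.10) lie outside. Hspe1 was read by a probe set shared within a sequence family.

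Protein import genes and matrix chaperones were wider in range, with 8 of 14 below 0 and a median of -0.17 (0.03 under bacterial-control scaling). The chaperonin genes Hspe1, by a probe set shared within a sequence family, and Hspd1 stood at -1.10 and -0.92. Timm10b, a small import chaperone, stood at 0.87. A further 3 import genes had bounds on the lower side, Timm8a1, Timm9 and Tomm70a, of at least 1.58-fold, 1.33-fold and 1.23-fold. Carriers and porins had a median of -0.02 with 5 of 9 below 0. Within them the heart and muscle type ADP/ATP carrier Slc25a4 and the porin Vdac1 stood at -0.69 and -0.56. The general carrier Slc25a5 read 24643 and 24659. Slc25a4 and Slc25a5 were each read by a probe set shared within a sequence family, which may not read the gene alone. The highest, Ucp3 and Slc25a10, stood at 0.54 and 0.38. For the mitochondrial ribosome the median was -0.06 with 12 of 19 below 0. The lowest, Mrpl30, was 2.56-fold lower, Mrps31 stood at -0.87 and the highest, Mrpl21, at 0.57. A further 3 ribosome genes had a bound on the lower and 1 on the higher side. The carrier and ribosome medians turned above 0 under bacterial-control scaling, to 0.18 and 0.15.

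Of 11 genes for biogenesis regulation or mitochondrial DNA maintenance with a probe set, 5 were measured (median 0.16, above 0 under all 5 other scalings). The regulators Gabpb1, Yy1 and Pprc1, a coactivator, stood at 0.61, 0.16 and -0.61. Of the maintenance genes, the mitochondrial DNA polymerase gene Polg stood at 0.37 and Ssbp1 at -0.06. Tfam, which packages mitochondrial DNA, read 758 and 521, at least 1.10-fold lower. Gabpa and Esrra were below the floor in both genotypes.

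Promoters were searched because NRF1, GABPA and YY1 are known regulators of nuclear respiratory genes. RefSeq promoters on GRCm38.p6, running from 250 bases before a gene's start to 50 after, were found for 46 of the 56 members (50 promoters). The NRF1 core GCATGCGC, on either strand, was in 8 of the 50, or 16%, against 2.71% of all 32851 promoters and 4.84% of the 3185 promoters of other genes measured on these arrays. The core is nearly its own reverse complement, so overlapping matches on both strands were counted once per promoter. The ETS core CCGGAAGT bound by GABPA was in 6% of member promoters, 3.89% of all and 7.88% of those of other measured genes, and the YY1 core AAGATGGCG in 6%, 1.4% and 2.61%. A match is a string of letters and not a shown site, and promoters of expressed genes differ from others in base composition.

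Of the 8 members with the NRF1 core, 5 were measured. Of these 4 were below 0, a share close to the 34 of 44 over all measured members: Cycs at -0.54, Atp5k at -0.45, Cox6a1 at -0.41 and Uqcr11 at -0.40. Atp5l, at 0.24, also held the core. Of the 3 measured genes with each other core, 2 were below 0 for GABPA and 3 for YY1. Those with the GABPA core were Uqcr11, Cox8a at -0.005 and Ndufs3 at 0.23. Those with the YY1 core were Atp5j2 at -0.27, Ndufs4 at -0.11 and Atp5j at -0.06. These YY1 values were smaller than the measurement error of 1 ratio. Under bacterial-control scaling they stood above 0, at 0.08, 0.09 and 0.14. The other 3 genes with the NRF1 core had no ratio, since Ndufa11 and Uqcrc1 gave bounds on the higher side and Ndufaf4 was below the floor. The match began 60 bases before the start in Cycs, 50 in Atp5k, 162 in Cox6a1, 4 in Uqcr11 and 240 in Atp5l. The 250 bases before the start are shown for 3 of the lower genes and for Atp5l, with matches in capitals, so that the place of the core can be compared.

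Cycs, chr6:50566570-50566819, minus strand: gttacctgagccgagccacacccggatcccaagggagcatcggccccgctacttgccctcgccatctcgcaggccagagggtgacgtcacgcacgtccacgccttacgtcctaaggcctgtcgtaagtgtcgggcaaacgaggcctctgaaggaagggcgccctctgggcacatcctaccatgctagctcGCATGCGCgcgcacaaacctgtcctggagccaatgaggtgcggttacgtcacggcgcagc
Atp5k, chr5:108434400-108434649, minus strand: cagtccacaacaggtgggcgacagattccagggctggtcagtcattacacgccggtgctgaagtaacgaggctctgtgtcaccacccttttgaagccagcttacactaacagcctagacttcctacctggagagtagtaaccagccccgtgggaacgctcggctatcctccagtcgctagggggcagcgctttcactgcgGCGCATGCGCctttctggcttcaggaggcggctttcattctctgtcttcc
Cox6a1, chr5:115348959-115349208, minus strand: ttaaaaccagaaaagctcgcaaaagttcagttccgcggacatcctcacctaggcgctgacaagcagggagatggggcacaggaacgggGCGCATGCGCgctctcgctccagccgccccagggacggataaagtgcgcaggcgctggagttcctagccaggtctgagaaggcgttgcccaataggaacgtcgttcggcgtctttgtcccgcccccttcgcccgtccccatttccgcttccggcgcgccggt
Atp5l, chr9:44920743-44920992, minus strand: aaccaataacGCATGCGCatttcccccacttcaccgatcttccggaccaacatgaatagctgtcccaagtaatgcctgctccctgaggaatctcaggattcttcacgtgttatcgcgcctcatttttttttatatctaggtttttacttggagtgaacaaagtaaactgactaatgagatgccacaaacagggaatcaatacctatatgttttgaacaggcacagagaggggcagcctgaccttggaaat

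In these sequences the core lay near the start in Cycs and Atp5k and at the far end in Atp5l. Atp5k and Cox6a1 hold the longer palindrome, in which both strands match. The same letters thus stood before genes with lower and with higher signal.

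Markers of the cells in the exudate moved as well. In a bulk sample, fewer cells of a type and less RNA per cell cannot be told apart. Of 11 measured neutrophil markers 9 were below 0 (median -0.51), with a summed signal of 214499 in wild-type and 158988 in deficient cells, and 2 more had a bound below 0 while Camp, a granule gene, was below the floor. Of 16 measured monocyte and macrophage markers 11 were below 0 (median -0.52), with sums of 476399 and 442534, and Fcgr1 had a bound above 0. These markers did not move as a group (SD 1.04). The 5 above 0 were Apoe at 2.22, Ccr2 at 0.97, Csf1r at 0.84, Mpeg1 at 0.67 and Cd68 at 0.29. The lowest were Mrc1 at -2.30 and Cd14 at -1.03. Of all measured genes 48.9% were below 0. The medians of both lists stayed below 0 under all 5 other scalings. For comparison the signal summed over the 44 members was 545983 and 486328.

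Lymphocyte and other markers were fewer. Cd22 and Pax5 of the B cell list had bounds on the lower and the higher side. Of 5 measured B cell markers 3 were below 0 (sums 56080 and 48457; median -0.11, and 0.09 under bacterial-control scaling), and of 8 T and NK cell genes only Cd247 was measured (1257 and 1100), with Cd3e at least 1.83-fold lower (1901 and 921) and Cd3d, Cd3g, Cd4, Cd8a, Klrb1c and Zap70 below the floor. All 5 measured mesothelial and fibroblast markers were below 0 (sums 18070 and 9387), with a bound on the lower side for Krt8 and with Msln, Upk3b, Krt18, Krt19, Col1a2 and Lum below the floor. Of 3 measured erythroid genes 2 were below 0 (sums 101237 and 68587), and the fourth with a probe set, Alas2, the first enzyme of erythroid heme synthesis, read 4774 and 539, at least 6.90-fold lower. Of 4 measured mast cell and eosinophil genes 3 were below 0 (sums 9558 and 7005), with a bound on the higher side for Cpa3. The part of these cells in the members' shift was not tested.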

How the data were processed

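The deposited values are Affymetrix array intensities on a linear scale, 1 whole number per probe set, with 20.7% to 29.3% of them below 0. How the authors summarised, background-corrected and scaled their probes is not given in the sources used here. Scanner files were not used. Genotypes were taken from the sample titles and gene names from the platform annotation. All 56 member symbols matched a RefSeq gene by gene ID.

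Within each array type both arrays were brought to the same trimmed mean (2% dropped at each end) over 6523 probe sets on A and 6534 on B. Bacterial, mouse and yeast control probe sets were left out. Since a genotype has 1 array of each type, nothing could be tested. Lists were described by counts and medians beside all genes. Named members were those past 2-fold, the extremes of each complex, genes with repeat probe sets, isoform groups and the brightest, with most others given for completeness. Other mitochondrial lists name some of their extremes on each side. The members and lists were chosen with earlier results of these data known. Suffixes follow the manufacturer's probe set names, _f for a sequence family (17 of 65 members). Of the other member probe sets 37 had the suffix _s, 2 _g and 1 _r, and 8 had none. Only the family suffix was marked throughout for members, and not for every gene of the other lists. A probe set without that mark was not thereby shown to read its gene alone. The procedure was tested on simulated arrays. Alternatives were other scalings (none, equal medians, quantile, loess with span 0.3, bacterial controls), floors at the 30th and 70th percentile, other probe sets, 1 array type, 1.5-fold and means. Python 3.11.15, numpy 2.4.6, pandas 2.3.3, statsmodels 0.14.6 and matplotlib 3.10.9 were used.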

Additional observations from a re-analysis of the deposited data

How the results depend on the processing

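The members' median of -0.17 ranged from -0.20 to -0.15 under no scaling, equal medians, quantile and loess scaling, both other floors, each array type alone, the 2 means and without family probe sets. Bacterial-control scaling, which raises all genes, gave 0.0537, with 0.0537 for complex I, -0.0631 for complex III, 0.134 for complex IV and 0.0781 for ATP synthase. It left 17 members below 0 and put 1 member probe set (0 before) past 2-fold on the high side, with 110 lower and 487 higher of all probe sets. Equal medians put complex IV at -0.30, and leaving out family probe sets, an alternative chosen after seeing the data, put it at -0.00545. With the floor at the 30th percentile 3 of 55 member probe sets (Ndufa12, Uqcrfs1 and Ndufab1) were lower by 2-fold or more, beside 628 lower and 661 higher of 8421 in all, and Uqcrc1 had a bound of at least 6.99-fold higher. At the 70th these were 66 and 76. Past 1.5-fold there were 2 lower and 3 higher members, and 656 and 751 of all. Without any suffixed probe set only 2 members were left, both below 0 (median -0.39, complex I -0.63), with 32 lower and 35 higher of all probe sets. Type A alone gave 91 and 74, and type B alone 110 and 125, with 8 members below 0 and a complex I median of -0.00145 (2 genes). The cause of these differences was not tested beyond what each setting removes. No paired analysis was possible because each genotype has 1 array per type and no numbered replicates. The number of arrays, and signal near the floor for members such as Ndufa12, Ndufab1, Ndufa11, Uqcrfs1 and Uqcrc1, limit the precision.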
